A study of Mus musculus with 4 samples.

Results

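The genes examined here encode proteins that carry long-chain fatty acids into liver cells and through their cytosol. They comprise 6 fatty acid-binding protein genes (Fabp1, Fabp2, Fabp3, Fabp4, Fabp5 and Fabp7), the fatty acid translocase gene Cd36, and 3 fatty acid transport protein genes (Slc27a2, Slc27a4 and Slc27a5). They were chosen by symbol from the 25655 genes of the table, and all 10 were found and had enough reads to be tested. Their expression was compared between livers of HFD-WT mice, which are ADAR2+/+/GluR-B R/R, and HFD-KO mice, which are ADAR2-/-/GluR-B R/R. ADAR2 is an enzyme that edits adenosine to inosine in RNA. The GluR-B R/R allele, which both genotypes carry, holds the edited form of a glutamate receptor and keeps mice without ADAR2 alive. Mice of a B6129S background were given a high-fat diet (HFD) for 12 weeks from the age of 5 weeks, and each genotype had 2 libraries. The sex of the sequenced mice is not given in the labels. After glucose and insulin tests in both sexes, the study states that its remaining work focused on males. The Y-linked gene Ddx3y was expressed in all 4 libraries, which cannot show whether a library also held RNA of females. The study's text gives more mice per group for the sequenced comparison than there are libraries, and whether a library holds 1 liver or a pool is not given in the sources used here, so the spread between libraries of a group may be technical, and livers on the standard diet were not analysed here.

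Fatty acid-binding proteins are small cytosolic proteins with a barrel-shaped pocket that holds a fatty acid. Each family member is named after the tissue in which it is abundant, and in hepatocytes the liver form, FABP1, prevails. CD36 and the SLC27 proteins act at membranes. CD36 binds long-chain fatty acids at the cell surface, while SLC27 proteins also attach coenzyme A to fatty acids, which traps them inside the cell. Several of these genes are known targets of the fatty acid-sensing receptors PPARα and PPARγ.

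The total count per library was between 24480798 and 28691330. Levels are given as CPM (read counts scaled to the same library size, adjusted by the TMM method), and 3 reads, taken as the smallest detectable amount, correspond to between 0.104 and 0.126 CPM, which covers counting error only. Adarb1, the targeted gene, had 15.7 and 19.8 CPM in HFD-WT livers and 6.23 and 9.55 CPM in HFD-KO livers. The groups did not overlap, with a log2 fold change of -1.17 and an adjusted p of 0.159 by edgeR (0.000673 to 0.194 over the alternatives with all 4 libraries). The 2 HFD-KO libraries stood further apart than the HFD-WT libraries. Of the 12967 genes tested, 42 were more than 2-fold above the other 3 libraries in HFD-KO replicate 2 and 59 were more than 2-fold below them. The same counts were 37 and 31 for HFD-KO replicate 1, against at most 8 and 25 for an HFD-WT library. The hepatocyte marker genes were expressed in every library, with a summed level between 85157 and 100125 CPM. B and plasma cell markers summed to 128 CPM in HFD-KO replicate 1 and to between 17.5 and 25.5 CPM in the other libraries.

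None of the 10 genes differed between genotypes after adjustment for all genes tested. By edgeR's quasi-likelihood test, 0 of 10 had an adjusted p under 0.05 (lowest adjusted p = 0.451), where 0.0771% of all genes tested did. At an unadjusted p under 0.05 there were 2 genes, Cd36 with lower and Fabp5 with higher values in HFD-KO livers, and 8.98% of all genes tested passed that threshold. DESeq2's Wald test and limma-voom also gave 0 genes at an adjusted p under 0.05. At an unadjusted p they gave 1 gene each, Cd36. Both HFD-KO values lay on the same side of the HFD-WT range for 3 genes, Slc27a2 above it and Cd36 and Slc27a4 below it, against 40.8% of all genes tested. The median log2 fold change of the 10 genes was 0.13, beside 0.0068 for all genes tested.

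**Figure D1:**
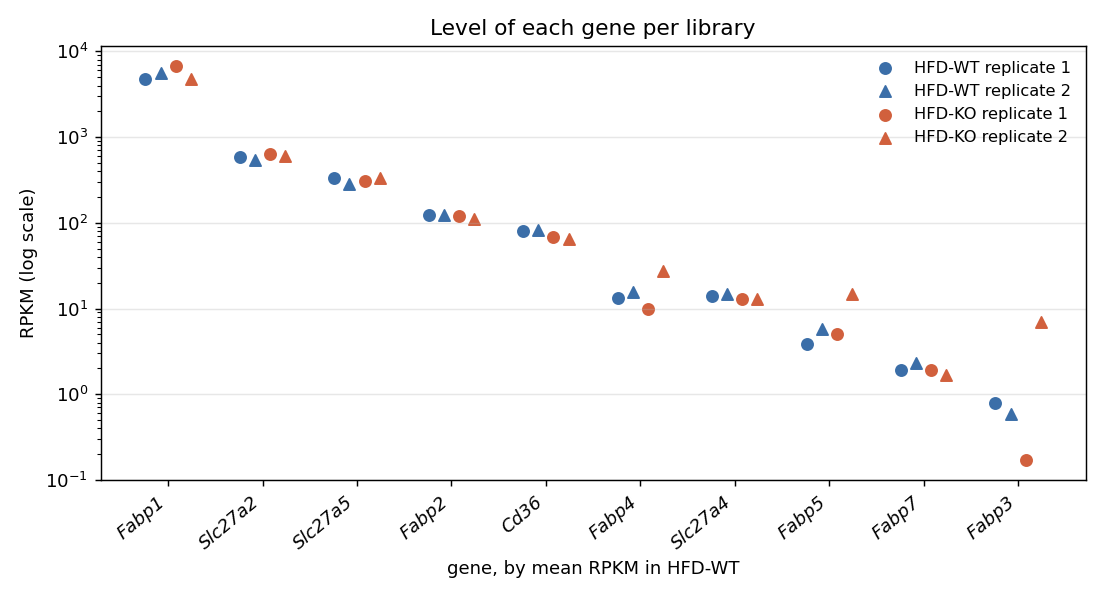
RPKM (reads scaled by exon length and library total, log scale) of each gene, ordered by the mean in HFD-WT livers. Each point is 1 library, blue for HFD-WT and orange for HFD-KO, circles for replicate 1 and triangles for replicate 2. Fabp1 lies highest in every library, and HFD-KO replicate 2 stands above the other libraries for Fabp3, Fabp4 and Fabp5.

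The plot of RPKM by library shows the order of the levels. Levels of different genes were compared per length of exon, in RPKM. In HFD-WT livers Fabp1 had 5170 ± 611 RPKM (SD, n = 2), followed by Slc27a2 with 570 ± 33.1 RPKM and Slc27a5 with 309.7 ± 38.7 RPKM. Fabp2 had 123 ± 0.413 RPKM and Cd36 81.4 ± 2.65 RPKM. Fabp4 and Slc27a4, with 14.4 RPKM each, could not be ordered, since their libraries overlapped. Fabp5 (4.82 ± 1.37 RPKM), Fabp7 (2.10 ± 0.269 RPKM) and Fabp3 (0.685 ± 0.139 RPKM) came last. In HFD-WT livers no other neighbours in this order overlapped. In HFD-KO livers the first 5 genes kept this order without overlap. Below them Fabp4, Slc27a4, Fabp5, Fabp3 and Fabp7 each overlapped with the next.

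Fabp1, the gene of the liver form, is listed as ENSMUSG00000054422 on chromosome 6 from 71176811 to 71182007 (GRCm39). It held nearly the whole of the family's expression. Of the RPKM summed over the 10 genes of the family in the table, Fabp1 made up 97.1% and 97.5% in HFD-WT and 98.0% and 96.7% in HFD-KO livers. This share differed by 0.0860 percentage points between genotypes (exact permutation test, two-sided, p = 1, where the smallest p that 2 against 2 libraries allow is 0.333). The level of Fabp1 was 2808 and 3268 CPM in HFD-WT livers and 4123 and 2887 CPM in HFD-KO livers. HFD-KO replicate 1 was the highest of the 4 libraries, whereas replicate 2 lay between the HFD-WT values, so the groups overlapped. The log2 fold change was 0.21 (95% interval -0.22 to 0.63, adjusted p = 0.779 by edgeR). It was 0.44 without HFD-KO replicate 2 and -0.073 without HFD-KO replicate 1, so the direction rested on which HFD-KO library was kept.

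Promoter sequence from RefSeq was at hand for 7 of the 10 genes. The 250 bases before the start are shown for Fabp1, the most abundant of the genes, for Cd36, whose HFD-KO values were below the HFD-WT values at an unadjusted p under 0.05, and for Fabp3, which varied most between libraries. Capitals mark matches, on either strand, to the nuclear receptor half-site AGGTCA, to a direct repeat (AGGNCA, any 1 base, then AGGNCA, the kind of element that PPAR and HNF4α bind), to the TATA box core TATAAA, or to the GC box GGGCGG. The half-site can lie inside the direct repeat. The sequences run 5′ to 3′ on the gene's strand and come from GRCm38.p6, a build other than that of the count table.
Fabp1, chr6:71199629-71199878, plus strand: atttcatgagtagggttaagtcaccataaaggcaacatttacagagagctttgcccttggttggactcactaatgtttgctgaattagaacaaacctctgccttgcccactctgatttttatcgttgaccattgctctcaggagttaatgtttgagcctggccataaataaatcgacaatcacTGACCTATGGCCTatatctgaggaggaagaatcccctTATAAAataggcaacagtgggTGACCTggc
Cd36, chr5:17835897-17836146, minus strand: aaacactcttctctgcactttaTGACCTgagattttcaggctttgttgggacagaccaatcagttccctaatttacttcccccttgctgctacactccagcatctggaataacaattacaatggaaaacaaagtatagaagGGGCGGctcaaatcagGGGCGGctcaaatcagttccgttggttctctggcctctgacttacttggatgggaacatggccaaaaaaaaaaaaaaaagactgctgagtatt
Fabp3, chr4:130308488-130308737, plus strand: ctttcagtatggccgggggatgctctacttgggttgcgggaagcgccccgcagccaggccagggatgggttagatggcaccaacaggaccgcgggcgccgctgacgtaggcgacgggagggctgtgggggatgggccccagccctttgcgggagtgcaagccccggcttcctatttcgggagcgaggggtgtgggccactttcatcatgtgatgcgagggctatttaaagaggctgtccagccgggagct

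The Fabp1 window held the direct repeat as TGACCTATGGCCT on the opposite strand, 67 to 55 bases before the start, and a TATAAA 30 to 25 bases before it. Among the 7 genes no other window held either motif. The direct repeat occurred in 0.338% and TATAAA in 12.4% of the 32851 promoter windows of this length in the RefSeq set. The Cd36 window held the half-site once, which 14.02% of windows did, and GGGCGG at 2 places 109 to 104 and 93 to 88 bases before the start, a motif of 32.7% of windows. Cd36 is known to have several alternative starts, and counts per gene do not show which of them these livers used. The Fabp3 window held none of the 4 motifs. These matches describe the letters only and were not tested for binding.

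Fabp2, the intestinal fatty acid-binding protein gene, was the steadiest of the family. It had 127 and 125 CPM in HFD-WT livers and 127 and 119 CPM in HFD-KO livers. The groups overlapped, with a log2 fold change of -0.032 (95% interval -0.22 to 0.16, adjusted p = 0.936 by edgeR). The 6 markers of intestinal epithelium summed to between 23.0 and 27.2 CPM, nearly all of it from Lgals4 (22.8 to 27.1 CPM), while Cdx2, Sis and Fabp6 were at 0 reads in all 4 libraries. Their part in the level of Fabp2 was not tested. Fabp7, the brain fatty acid-binding protein gene, had 2.56 and 3.02 CPM in HFD-WT livers and 2.58 and 2.30 CPM in HFD-KO livers. The groups again overlapped (log2 fold change -0.19, 95% interval -0.73 to 0.35, adjusted p = 0.852 by edgeR).

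Fabp3, Fabp4 and Fabp5 shared a pattern that did not follow the genotype, in that all 3 were highest in HFD-KO replicate 2. Fabp3, the heart and muscle form, is listed on chromosome 4 from 130202388 to 130209256. It had 0.691 and 0.509 CPM in HFD-WT livers, from 20 and 14 reads, and 0.152 and 6.32 CPM in HFD-KO livers, from 4 and 151 reads. The 2 HFD-KO libraries thus enclosed both HFD-WT values and differed 41.6-fold from each other, a gap matched or exceeded by 0.0308% of the genes tested. The 4 reads of HFD-KO replicate 1 have a 95% Poisson interval of 1.09 to 10.2 reads, which covers counting error only and does not reach the 151 reads of the other library. The log2 fold change of 2.40 had a 95% interval from -0.37 to 5.17 (adjusted p = 0.617 by edgeR). With all 4 libraries kept, it was 0.66 by limma-voom and 1.65 with the replicate number as a block. It was -1.95 without HFD-KO replicate 2 and 3.38 without HFD-KO replicate 1. Fabp3 overlaps Zcchc17 on the opposite strand, and the use of strand in counting is not stated. Zcchc17 itself had 401 and 372 reads in HFD-WT and 377 and 332 reads in HFD-KO libraries, without a high value in HFD-KO replicate 2.

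Fabp4, the adipocyte form, which macrophages and endothelial cells also express, had 12.8 and 14.6 CPM in HFD-WT livers and 9.72 and 27.3 CPM in HFD-KO livers. Its lowest and its highest value were both from HFD-KO livers, which differed 2.81-fold. The log2 fold change was 0.43 (95% interval -0.50 to 1.35, adjusted p = 0.790 by edgeR). It changed sign, to -0.50, without HFD-KO replicate 2, and was 0.99 without HFD-KO replicate 1. Fabp5, the epidermal form, had 4.07 and 6.03 CPM in HFD-WT livers and 5.47 and 15.99 CPM in HFD-KO livers. HFD-KO replicate 1 lay within the HFD-WT range, and replicate 2 was the highest library, 2.92-fold above replicate 1. Fabp5 had a log2 fold change of 1.08 (95% interval 0.021 to 2.14, unadjusted p = 0.0466, adjusted p = 0.545 by edgeR). It was 0.12 without HFD-KO replicate 2 and 1.67 without HFD-KO replicate 1. The mouse genome holds processed copies of Fabp5, and how shared reads were counted is not stated, which adds uncertainty to its values.

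**Figure D2:**
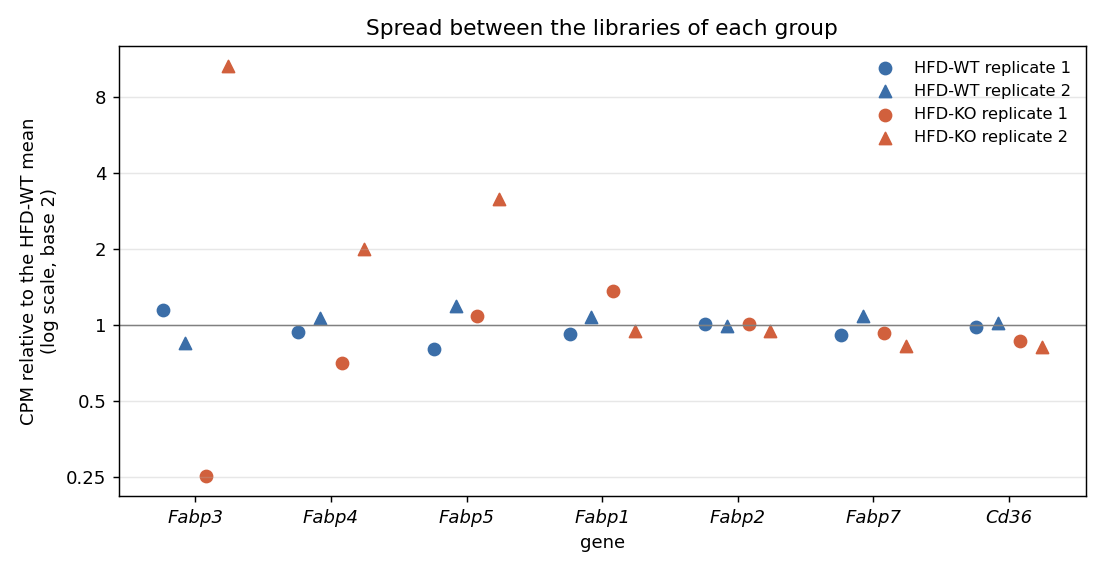
CPM of 7 genes in each library, divided by the mean of the HFD-WT libraries (log scale of base 2). Points are coloured as in the plot of levels, and the line marks the HFD-WT mean. HFD-KO replicate 2 is the highest library for Fabp3, Fabp4 and Fabp5, with 6.32, 27.3 and 15.99 CPM, but not for Fabp1, Fabp2, Fabp7 or Cd36.

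The plot of CPM relative to the HFD-WT mean shows that the spread was not shared by the whole family. A gap between the HFD-KO libraries as large as that of Fabp4 or Fabp5 was seen in 1.08% and 1.033% of the genes tested. For Fabp1 that share was 11.7%, and for Fabp2, Fabp7, Cd36 and the Slc27a genes it was between 48.0% and 91.0%. Fabp5 and Fabp4 are close to each other on chromosome 3, from 10077608 to 10081667 and from 10269148 to 10273636, in a cluster with 3 further genes of the family. These neighbours were nearly silent, with 0 reads for Pmp2 and Fabp9 in all 4 libraries and 1 read for Fabp12 in each HFD-KO library.

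Markers of the cells in which these forms are abundant were inspected beside this pattern. The muscle markers summed to at most 1.17 CPM in a library, and to 0.419 CPM in HFD-KO replicate 2, and 0 of 6 had enough reads to be tested. Of the adipocyte markers, Lep was at 0 reads and Adipoq and Plin1 had at most 4 and 2 reads in any library. The sum of all 9 adipocyte markers in the table, which includes genes that hepatocytes express, was lowest in HFD-KO replicate 2, with 3962 CPM against 4666 and 5247 CPM in HFD-WT livers and 6300.3 CPM in HFD-KO replicate 1. Nearly all of this sum came from Pck1 and Car3, with 2232 and 1636 CPM in HFD-KO replicate 2, so it says little about adipocytes. The lipid-associated macrophage markers also had their lowest sum in that library, at 550.2 CPM against 573 to 725 CPM in the others, of which Ctsd gave 417 CPM. Lpl of the same list was highest there, with 54.2 CPM against 28.2 to 36.6 CPM. The 12 endothelial markers summed to between 410 and 462 CPM, with 413 CPM in HFD-KO replicate 2. Red blood cell markers were highest there, with 1146 CPM against 601 to 811 CPM, and their part in the pattern was not tested. In bulk liver, more cells of a type and more RNA per cell cannot be told apart.

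The genes whose profile over the 4 libraries was most like that of Fabp3 were Ndufa4l2, Cux2, Obp2a, Mab21l3 and Pdk4, in this order. Likeness was the root mean square difference of log2 CPM centred on each gene's mean, with a prior of 2 reads, among 11765 genes with a mean of at least 1 CPM, and ranged from 0.44 for Ndufa4l2 to 0.91 for Pdk4. Pdk4, a kinase that restrains pyruvate oxidation, had 14.4 and 13.8 CPM in HFD-WT livers and 10.9 and 53.1 CPM in HFD-KO livers. Ndufa4l2, which encodes a mitochondrial protein, had 1.59 and 1.42 CPM in HFD-WT livers and 1.026 and 17.3 CPM in HFD-KO livers. All 5 genes were highest in HFD-KO replicate 2, the pattern they were chosen for. Ndufa4l2, Obp2a and Pdk4 were lowest in HFD-KO replicate 1, whereas Cux2 was lowest in HFD-WT replicate 2 (0.327 CPM) and Mab21l3 in HFD-WT replicate 1 (0.449 CPM). The same genes came first with a pseudocount of 0.1 CPM.

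Cd36, a scavenger receptor and fatty acid translocase, is listed as ENSMUSG00000002944 on chromosome 5 from 17986688 to 18093799. It had 306 and 315 CPM in HFD-WT livers and 269 and 255 CPM in HFD-KO livers. Both HFD-KO libraries were below both HFD-WT libraries, and the groups did not overlap. The log2 fold change was -0.24 (standard error 0.082, 95% interval -0.44 to -0.051), or 0.844 of the HFD-WT level (0.738 to 0.965). It had the lowest p of the 10 genes, an unadjusted p = 0.0198, while the adjusted p was 0.451 by edgeR, and 4.73% of all genes tested were lower at such an unadjusted p. The log2 fold change lay from -0.28 to -0.21 with any 1 library left out.

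Cd36 is expressed by hepatocytes and also by macrophages and endothelial cells. The Kupffer cell and macrophage markers were lower along with it, with 10 of 12 below the HFD-WT range in both HFD-KO libraries, against 20.3% of all genes tested, and a summed level of 491 and 615 CPM in HFD-WT against 401 and 381 CPM in HFD-KO livers. Of the lipid-associated macrophage markers 5 of 8 were below that range, and of the endothelial markers 2 of 12, with summed levels of 411 and 462 CPM in HFD-WT against 410 and 413 CPM in HFD-KO livers. Of the hepatic stellate cell markers, 6 of 10 were below it. No marker of these 4 lists was at 0 in all libraries. Their part in the value of Cd36 was not tested. Of its known regulators, Pparg was looked at after the values were seen. Pparg had 21.4 and 20.9 CPM in HFD-WT livers and 22.2 and 17.8 CPM in HFD-KO livers (log2 fold change -0.080, adjusted p = 0.877 by edgeR). Of the 23 transcriptional regulators described below, Nr1i2 alone had an unadjusted p under 0.05 by edgeR and was lower in HFD-KO livers. Its log2 fold change was -0.38 (adjusted p = 0.271 by edgeR), and its part in the value of Cd36 was not tested.

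Of the 3 fatty acid transport protein genes, Slc27a5 differed most between libraries. Slc27a2 encodes FATP2, which takes up long-chain fatty acids and activates very long-chain ones. It had 1914 and 1735 CPM in HFD-WT livers and 2072 and 1992 CPM in HFD-KO livers. Both HFD-KO values were above both HFD-WT values, as in 20.5% of all genes tested, and the log2 fold change was 0.16 (95% interval -0.098 to 0.41, adjusted p = 0.711 by edgeR). Slc27a5 encodes FATP5, a liver protein that also joins bile acids to coenzyme A. Its values of 842 and 694 CPM in HFD-WT livers and 791 and 860.2 CPM in HFD-KO livers overlapped (log2 fold change 0.10, 95% interval -0.17 to 0.38, adjusted p = 0.838 by edgeR). The HFD-WT libraries differed 1.21-fold, and the log2 fold change was -0.026 without HFD-WT replicate 2. Slc27a4 encodes FATP4, an acyl-CoA synthetase of intracellular membranes. It had 61.3 and 62.6 CPM in HFD-WT livers and 57.8 and 58.8 CPM in HFD-KO livers. Both HFD-KO values were below both HFD-WT values, as in 20.3% of all genes tested, with a log2 fold change of -0.088 (95% interval -0.27 to 0.094, adjusted p = 0.781 by edgeR). The 95% intervals of these 3 genes reached from 0.829 of the HFD-WT level, the lower bound of Slc27a4, to 1.33-fold, the upper bound of Slc27a2.

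**Figure D3:**
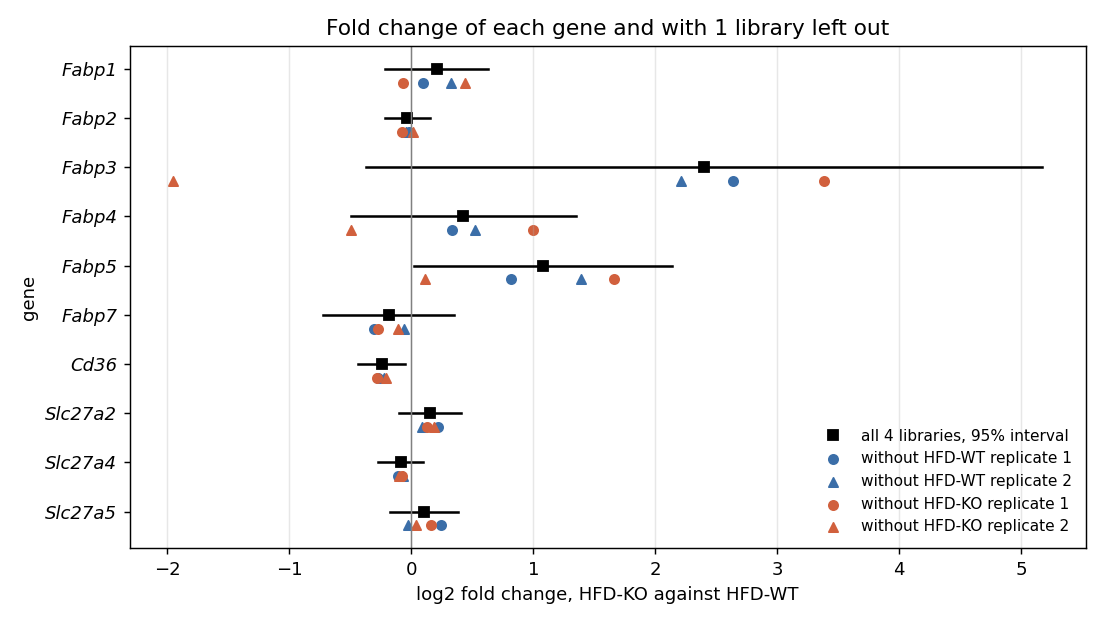
Log2 ratio of HFD-KO to HFD-WT for each gene. Squares with lines are the estimates from all 4 libraries with 95% intervals, and the small symbols below are the estimates with 1 library left out, coloured and shaped by that library. Fabp3 and Fabp4 change sign without HFD-KO replicate 2, at -1.95 and -0.50, while Cd36 stays between -0.28 and -0.21.

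Other genes of fatty acid uptake and handling were counted by lists. Of 19 tested genes of fatty acid and lipoprotein uptake, 0 had an adjusted p under 0.05, and 2 were higher and 0 lower at an unadjusted p under 0.05. Across all genes tested 4.25% were higher at that threshold. The first was Angptl8, a secreted inhibitor of lipoprotein lipase, with 21.9 and 24.8 CPM in HFD-WT livers and 33.3 and 49.9 CPM in HFD-KO livers (log2 fold change 0.83, adjusted p = 0.233 by edgeR and 0.00627 by DESeq2). The other was Lipc, the hepatic lipase gene, with 96.6 and 89.3 CPM in HFD-WT livers and 123 and 112 CPM in HFD-KO livers (log2 fold change 0.34, adjusted p = 0.332 by edgeR). The median of the list was a log2 fold change of 0.029. Ffar4, a receptor for long-chain fatty acids named here after its values were seen, was above the count minimum of the filter in too few libraries to be tested, with 7 and 2 reads in HFD-WT and 7 and 256 reads in HFD-KO libraries. Its reads thus lay almost all in HFD-KO replicate 2. Without the filter its log2 fold change was 5.05, with an adjusted p of 0.0455 by edgeR and 0.473 by DESeq2.

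Acyl-CoA synthetases activate the fatty acids that these proteins deliver. Of 12 tested, 0 had an adjusted p under 0.05, and 1 was higher and 1 lower at an unadjusted p under 0.05, which 8.98% of all genes tested passed. Acsl3, a synthetase of the endoplasmic reticulum and lipid droplets, had 10.7 and 10.3 CPM in HFD-WT livers and 16.2 and 14.2 CPM in HFD-KO livers (log2 fold change 0.53, adjusted p = 0.233 by edgeR). Acsm3, a medium-chain synthetase gene, had 177 and 171 CPM in HFD-WT livers and 158 and 133 CPM in HFD-KO livers (log2 fold change -0.25, adjusted p = 0.515 by edgeR). Of 18 tested genes of acyl-CoA binding and thioesterases, 0 had an adjusted p under 0.05, while Acot1 and Acot3 were higher and Acot11 was lower at an unadjusted p under 0.05 (8.98% of all genes tested). These genes encode enzymes that release fatty acids from coenzyme A. Acot1 had 60.1 and 65.0 CPM in HFD-WT livers and 84.4 and 94.1 CPM in HFD-KO livers (log2 fold change 0.51, adjusted p = 0.172 by edgeR and 0.00777 by DESeq2). Acot3 had 46.5 and 32.3 CPM in HFD-WT livers and 62.7 and 56.1 CPM in HFD-KO livers (log2 fold change 0.59, adjusted p = 0.363 by edgeR). Acot11 had 14.3 and 14.7 CPM in HFD-WT livers and 11.8 and 10.9 CPM in HFD-KO livers (log2 fold change -0.35, adjusted p = 0.386 by edgeR). In all 3 genes the groups did not overlap, but they were named for their p, so this adds no support. Of the 18 tested genes, 5 had both HFD-KO values above the HFD-WT range and 3 had both below it. Across all genes tested, 20.5% and 20.3% did. The medians of the synthetase and thioesterase lists were -0.0098 and -0.013.

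Of the 23 transcriptional regulators, all tested, 0 had an adjusted p under 0.05 and Nr1i2 alone had an unadjusted p under 0.05. Across all genes tested, 8.98% passed that unadjusted threshold. Nr1i2 encodes the xenobiotic receptor PXR and had 108 and 114 CPM in HFD-WT livers and 81.0 and 90.1 CPM in HFD-KO livers (log2 fold change -0.38, adjusted p = 0.271 by edgeR). With 1 library left out, its log2 fold change lay from -0.46 to -0.30. The median of the list was -0.017.

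The list of 10 genes linked to PPARγ in fatty liver, among them genes of lipid droplets, had 5 genes lower and 1 higher at an unadjusted p under 0.05, against 4.73% lower and 4.25% higher of all genes tested, and 0 at an adjusted p under 0.05. Its median log2 fold change was -0.34, beside 0.0068 for all genes tested. The list was compiled with earlier results of these samples known, so its direction is not independent evidence. Plin4, a lipid droplet coat protein gene, had 229.2 and 229.9 CPM in HFD-WT livers and 165 and 168 CPM in HFD-KO livers (log2 fold change -0.46, adjusted p = 0.136 by edgeR). Cidec, which encodes a droplet fusion protein, had 97.1 and 106 CPM in HFD-WT livers and 50.9 and 68.0 CPM in HFD-KO livers (log2 fold change -0.77, adjusted p = 0.168 by edgeR). By DESeq2's Wald test the adjusted p was 0.000848 for Plin4 and 0.000296 for Cidec. Mogat1, which encodes a monoacylglycerol acyltransferase, had 11.8 and 12.3 CPM in HFD-WT livers and 8.59 and 6.78 CPM in HFD-KO livers (log2 fold change -0.64, adjusted p = 0.248 by edgeR). Anxa2 and Apoa4 were the other lower genes, with log2 fold changes of -0.52 each, and Cfd, which encodes adipsin, was the higher one at 0.92 (Apoa4 and Cfd are named outside the rule, after their values were seen). Without HFD-WT replicate 2, Cfd was at 0.47 and Apoa4 at -0.32, and without HFD-WT replicate 1 Cfd was at 1.62. The macrophage markers that were lower in the same livers are given above with Cd36, and their part in these values was not tested.

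**Figure D4:**
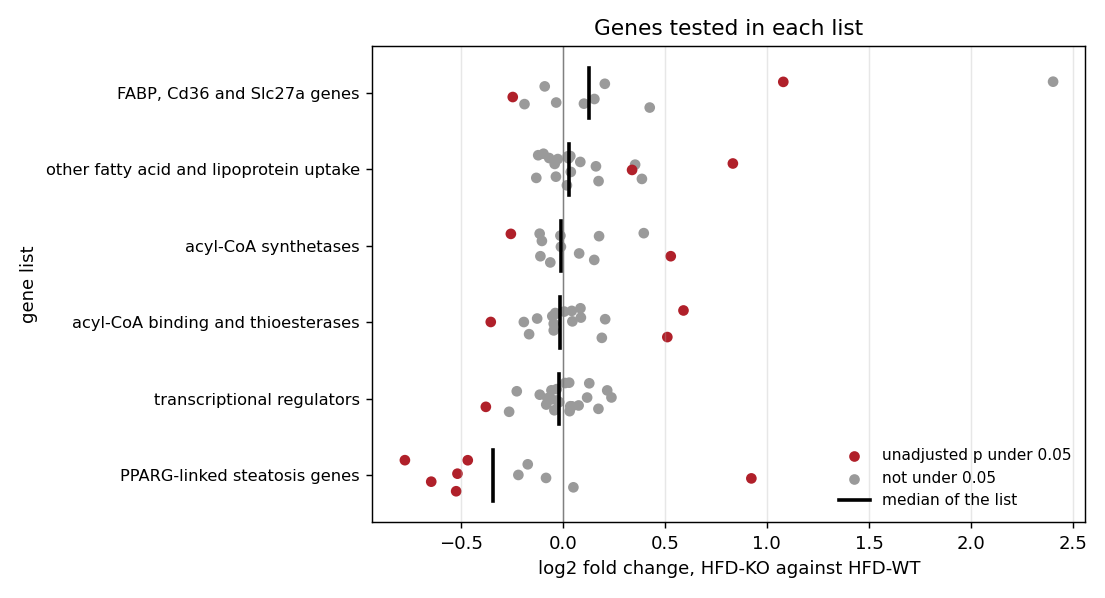
Log2 ratio of HFD-KO to HFD-WT for every tested gene of each list described here. Each point is 1 gene, red where the unadjusted p was under 0.05 by edgeR, and the black bar is the median of the list. The medians lie between -0.017 and 0.13 except for the list linked to PPARγ in fatty liver, at -0.34.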

How the data were processed

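Liver RNA of 2 HFD-WT and 2 HFD-KO libraries was sequenced on a DNBSEQ-G400RS. The authors trimmed and aligned the reads with a tool of MGI Tech and quantified GENCODE genes in Partek Genomics Suite. The library kit keeps strand. Versions, whether counting used strand, and how shared reads were handled are not given in the sources used here. The methods name mm10 and the labels also GRCm39, and the gene positions in the table are those of GRCm39. The authors' counts are whole reads per gene without normalization, and the tests of genes use them. The deposited RPKM values, scaled for exon length and depth, served to compare levels between genes and for the Fabp1 share. The deposited TPM values and the deposited CPM column, a score on an adjusted library size, were not used.

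Genes were kept by filterByExpr, libraries were scaled by TMM, and genotypes were compared by edgeR 4.0.16 (quasi-likelihood test, two-sided, R 4.3.3) over all 12967 genes kept, with Benjamini-Hochberg adjustment and a threshold of 0.05. The procedure was also run on simulated counts with known changes, and the outcome is not reported here. Shares were compared by exact permutation in scipy 1.17.1. Alternatives were DESeq2 1.42.0 (on all genes with a read), limma-voom (limma 3.58.1), other scalings and filters, the replicate number as a block, and leaving out each library. Promoters were read from a RefSeq table by symbol. A further gene list is not reported here. The genes and lists were chosen with earlier results of these data known. Named beside them were listed genes at an unadjusted p under 0.05, at most 4 per list, the neighbours of Fabp4 and Fabp5, Adarb1, and the 5 genes most like the member with the widest range.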

Additional observations from a re-analysis of the deposited data

How the results depend on the processing

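With 2 libraries per group, single libraries moved the fold changes. The number of the 10 genes at an adjusted p under 0.05 was 0 in all 7 alternatives that kept the 4 libraries. With 1 library left out, the library left alone in its group is assumed to vary like the other group. The calls of those fits are therefore not counted here. At an unadjusted p under 0.05, the 2 genes became 1, Cd36, with the library size alone as scaling, with a mean of at least 1 CPM, with DESeq2's Wald test and with limma-voom. They were 3 with no filter on low counts. The fixed lists together had 14 genes at that threshold, and from 11 to 28 with 1 library left out. That range shows only how far single libraries moved the count. Of the 14 genes, 6 came from the list linked to PPARγ, which was compiled with earlier results of these samples known. The pooled count is therefore not independent evidence. Across all genes tested, 8.98% passed that threshold with all 4 libraries.

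With 1 library left out, the log2 fold change ranged from -0.073 to 0.44 for Fabp1, from -0.080 to 0.015 for Fabp2, from -1.95 to 3.38 for Fabp3, from -0.50 to 0.99 for Fabp4 and from -0.026 to 0.24 for Slc27a5. The difference in the Fabp1 share ranged from -0.59 to 0.76 percentage points. Of the genes named from the lists, Angptl8, Acsl3, Acot1, Plin4, Cidec, Mogat1 and Ffar4 had an adjusted p under 0.05 with no filter (0.00525 to 0.0482 by edgeR). Angptl8, Acot1, Plin4 and Cidec also had one by DESeq2. Of the 10 genes, the other 5 kept their direction in every alternative run. The library size alone moved the median log2 fold change of all genes from 0.0068 to -0.039. Over all genes, the counts at an adjusted p under 0.05 were 7 higher and 3 lower, against 81 and 81 with no filter and 56 and 61 with DESeq2, which was also run without that filter, and at an unadjusted p 346 higher and 894 lower with the library size alone, against 551 and 613.

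The replicate numbers occur in both groups and no source ties them. The deviations of same-numbered libraries had a correlation of -0.087 across genes. With the replicate number as a block, 0 of the 10 genes had an adjusted p under 0.05 and 2, Cd36 and Fabp5, an unadjusted one. At 4 to 20 reads per library, as for Fabp3 in 3 libraries, counting error alone is large.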
